A study of Mus musculus with 18 samples.

Results

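Non-bulge cells of mouse skin at postnatal day (PD) 25 were compared with the same sorted fraction at PD21, on 6 of the 18 arrays of the study. The arrays were taken by their titles, as the 3 non-bulge arrays of each age, and each array is labelled as a separate mouse. All 18 arrays came from K5tTA x pTRE-H2B-GFP mice, whose parents were FvB and CD1, and in which a keratin 5 promoter drives a histone-GFP label that doxycycline shuts off. Doxycycline was given in food at 1 g per kg from PD18 to PD21 to the younger mice and from PD22 to PD25 to the older ones. Age and chase window therefore cannot be told apart. Skin cells were stained for CD34 and alpha 6-integrin, the non-bulge fraction was sorted apart from the CD34-marked bulge, and the labels give no division class for it. The other 12 arrays hold bulge cells that had not divided or had divided 1 or 2 times during the chase.

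The bulge is the part of the hair follicle that houses its slow-cycling stem cells, and the keratinocytes outside it include interfollicular epidermis, the upper follicle and the sebaceous gland. At about these ages, mouse back skin follicles leave their resting phase (telogen) and start a new growth phase (anagen), in which stem cells of the bulge and hair germ divide. The epidermis outside the follicle renews itself throughout, with dividing basal cells that carry keratins 5 and 14 and differentiated layers above them that carry keratins 1 and 10.

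The sorted fraction carried the markers its label calls for. All values are log2(signal + 16), where the signal is the array's linear intensity for a probe set. Krt5 lay between 14.01 and 15.42 on the 6 arrays, and Krt14 between 13.84 and 15.27. Cd34, the surface marker of the bulge gate, lay between 4.10 and 5.55 here and between 12.24 and 13.12 in undivided bulge cells. Krt15, a keratin of the bulge that basal cells also carry, lay between 14.24 and 15.74. The fraction also held differentiated and sebaceous transcripts, with Krt10 between 14.09 and 15.43 and Scd1 between 13.19 and 14.26. It is thus a mixture, and fewer cells of a type and less RNA per cell cannot be told apart in these data.

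Markers of other skin cells were in part bright. The matrix gene Sparc read 11.58 to 12.96 over the 6 arrays, Thy1 11.15 to 11.99 and Lpl, a lipase of fat cells, 10.60 to 11.61. Other markers of the same cells were dim, such as Col3a1 at 4.37 to 7.11, Dcn at 4.76 to 6.24 and Adipoq at 4.64 to 5.17. Sparc read 12.86 to 14.76 in undivided bulge cells, so it was not particular to fibroblasts. Of 22 immune markers, 21 had a probe set and 13 were tested, and the log2 of the summed signal of those 21 was 13.10 in PD21 mouse 1 and 11.82 to 12.31 on the other 5 arrays. In that array Ptprc read 7.78, Cd3e 8.34 and Cd74 10.08. For melanocytes, 11 of 12 markers had a probe set and 4 were tested, and the summed levels of the 11 were 9.58 to 9.97 at PD21 and 8.30 to 9.42 at PD25. Dct, a pigment enzyme, read 6.98, 5.85 and 5.76 against 4.05, 4.86 and 5.35. Fibroblast markers (19 of 20 with a probe set, 14 tested) summed to 13.12 to 13.29 at PD21 and 13.04 to 13.69 at PD25. Sparc and Thy1 were the brightest of these on every array. On all 6 arrays, 7 of the 19 fibroblast and 4 of the 8 adipocyte markers lay below the level of the median probe set. The 14 endothelial, 12 muscle, 13 Merkel and nerve and 8 adipocyte markers with a probe set, of which 3, 2, 4 and 3 were tested, had summed levels that overlapped between the ages. No erythroid marker passed the filter on low signals. The part of these cells in the differences given here was not tested.

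Both ages were spread over 2 sets of arrays that differed in the spiked hybridisation controls. These controls averaged 10.96 to 11.27 on the log2 scale on PD21 mice 1 and 2 and PD25 mouse 1 (the first set) and 12.62 to 13.12 on PD21 mouse 3 and PD25 mice 2 and 3 (the second set). The labels do not say what separates the sets. Across all probe sets that were tested, arrays of the fraction correlated at 0.911 to 0.971, and the closest pair was PD21 mouse 3 and PD25 mouse 3. That pair differs in age and lies in the second set.

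The array of PD25 mouse 2 stood apart in the circadian clock genes. Nr1d2, a repressor of the clock, read 8.09 there and 11.13 to 11.67 on all other 17 arrays of the study. Of 18 clock genes tested, 6 were below and 2 above the range of those 17 arrays. Over all genes, 14.7% lay outside that range on this array. The same share ran from 5.69% to 17.5% over the 18 arrays, the highest being PD21 non-bulge mouse 2. Among them, Per3 read 8.47, Tef 9.91, Nr1d1 7.17 and Dbp 8.90, all low, while Cry1 at 11.78 and Arntl at 9.16 were high. The bulge arrays that carry the same mouse number and age did not share this for most of these genes. Nr1d2 read 11.20 and 11.28 there, and Dbp 11.25 and 11.01. For Tef and Cry2, however, the divided bulge array was the lowest of the other 17, at 10.81 and 11.05. For genes named here whose difference exceeds its SE, the value without that array is given where it moved by over 1.5 times.

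**Figure D1:**
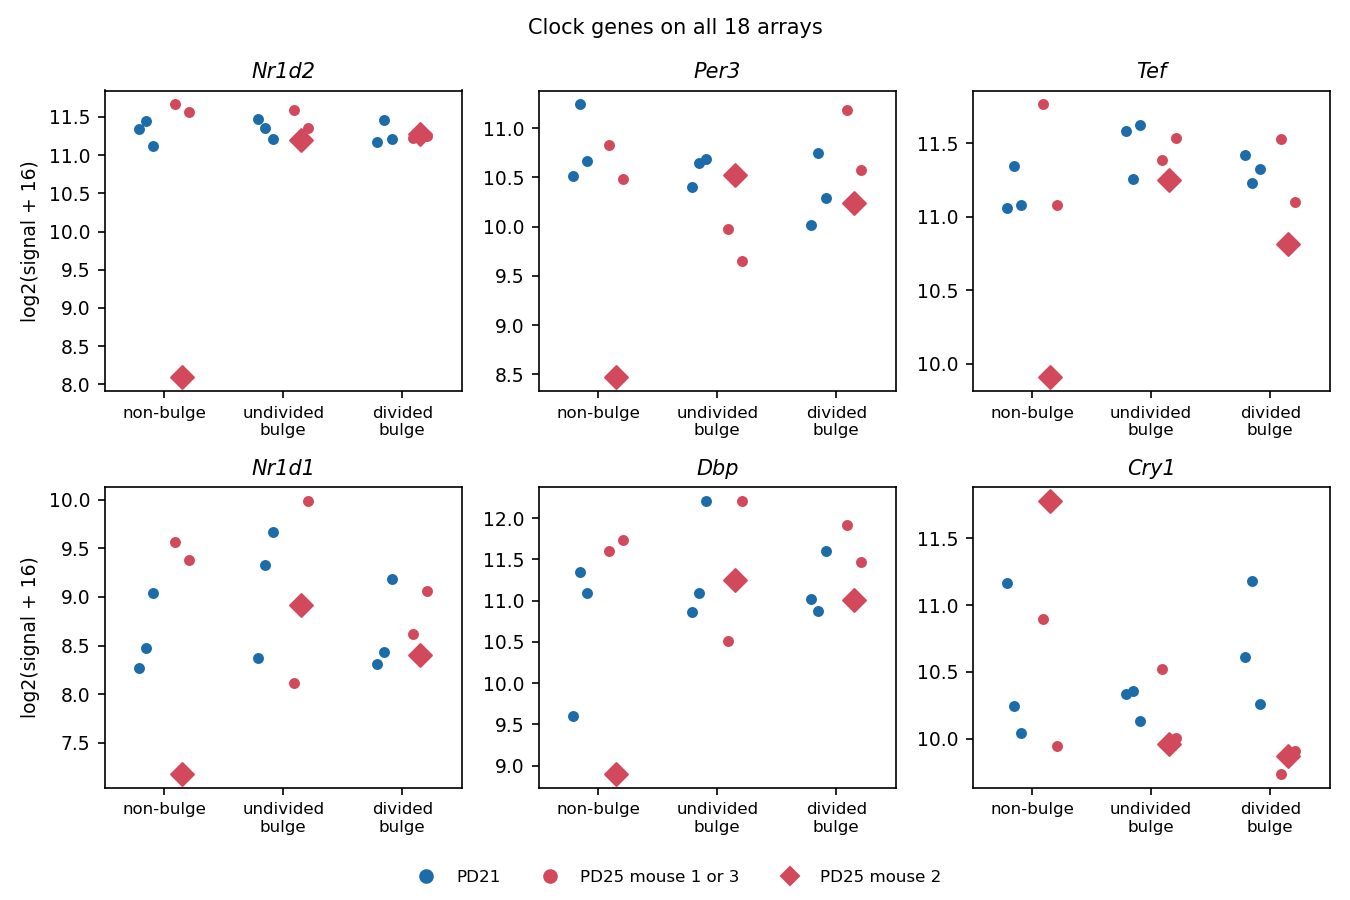
Level of 6 clock genes, as log2(signal + 16), on all 18 arrays by sorted fraction; each point is 1 array, and the diamonds are the 3 arrays labelled PD25 mouse 2. The non-bulge diamond lies below all other arrays for Nr1d2, Per3, Tef, Nr1d1 and Dbp and above them for Cry1, while the 2 bulge diamonds lie among the other arrays except for Tef, where the divided one is the lowest of them.

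The question of the main comparison was how the transcriptome outside the bulge differed between the 2 ages. No autosomal gene passed. The steroid enzyme gene Akr1c18 and the cytochrome P450 gene Cyp2g1 came closest, with lower levels on all PD25 arrays. Genes of ribosome biogenesis stood mostly higher at PD25, by a median of 0.45, while genes of DNA replication and mitosis had median differences near 0. With limma on all 18 arrays, 0 of 11171 autosomal genes (0%) had an adjusted p under 0.05, and the lowest adjusted p was 0.156. At an unadjusted p under 0.05 there were 485 genes (4.34%), 297 higher and 188 lower.

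A count of 0 here does not mean that the ages were alike. The median standard error of a gene's difference was 0.40, and only 4526 genes (40.5%) had a 95% interval wholly inside 1 log2 unit either way. All 3 PD25 arrays lay above all 3 PD21 arrays for 557 genes (4.99%) and below them for 426 (3.81%). These shares are the background against which the counts per gene list stand. The median difference over all genes was 0.022. With each array centred on its own median, the counts of separated genes were 547 above and 246 below.

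Akr1c18 encodes the 20-alpha-hydroxysteroid dehydrogenase that inactivates progesterone. Its level was 10.91, 11.37 and 11.28 in PD21 mice 1 to 3 and 9.47, 8.88 and 9.20 in PD25 mice 1 to 3. All PD25 arrays were lower, by at least 1 log2 unit. The difference was -2.01 ± 0.42 (SE, n = 3 mice per age), with a limma adjusted p of 0.156. It was -1.67 within the first set and -2.24 within the second. When limma was fitted on the 6 non-bulge arrays alone, its adjusted p was 0.00399, and over the alternatives that called any gene it was the gene called in 3. In undivided bulge cells the corresponding difference was -0.50. In divided bulge cells Akr1c18 read 10.84, 10.77 and 10.55 at PD21 and 8.43, 6.61 and 6.78 at PD25, and there it fell by 3.44 ± 0.42 on the log2 scale, with a limma adjusted p of 1.26e-05. The non-bulge difference was the smaller of these by 1.44 ± 0.60, a gap with an adjusted p of 0.295 in limma. Cd34, the gating marker, also differed in divided bulge cells, at 7.91 to 9.68 against 11.56 to 12.87. The part of the sort in the Akr1c18 difference there was not tested.

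Cyp2g1 encodes a cytochrome P450 best known from the olfactory mucosa. It read 9.20, 9.55 and 9.93 at PD21 and 5.51, 5.22 and 8.12 at PD25. PD25 mice 1 and 2 lay below 6.72, the level of the median probe set of these arrays, while PD25 mouse 3 stayed nearer to the PD21 arrays. The difference was -3.28 ± 0.77 (SE, n = 3), with a limma adjusted p of 0.489. With the array set as a block it was -3.69 and the adjusted p was 0.0164, and without PD25 mouse 3 it was -4.20 with an adjusted p of 0.0284. Undivided bulge cells had a difference of -2.04, and the test between the fractions gave -1.24 ± 1.09. In divided bulge cells the difference was -1.96 ± 0.77, with a limma adjusted p of 0.149.

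The next genes by p were taken from those with lower levels on all PD25 arrays and a level above the median. Spry2, a feedback inhibitor of receptor tyrosine kinases, read 10.39, 10.65 and 10.25 at PD21 and 9.67, 9.27 and 9.93 at PD25, a difference of -0.81 ± 0.23. Pik3r1, the regulatory subunit of PI3-kinase, differed by -1.02 ± 0.29, and Lifr, the receptor of leukaemia inhibitory factor, by -1.14 ± 0.32. For Lifr the limma adjusted p was 0.855, and 0.0418 without PD25 mouse 1, whose 10.84 lies just under the PD21 range of 10.87 to 11.44. Arrdc3 (an arrestin-domain protein), Crebrf (a regulator of CREB3), Ell2 (a transcription elongation factor) and Mtus1 (a microtubule-binding protein) differed by -0.99, -1.19, -1.19 and -0.93. Without PD25 mouse 2, Ell2 differed by -0.76. Of the 3 Mtus1 probe sets, 1 had the opposite sign. Gask1b, a Golgi protein, read 9.70, 9.53 and 9.70 at PD21 and 7.59, 7.97 and 9.43 at PD25, so that PD25 mouse 3 was close to the PD21 arrays.

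On the higher side, the 10 genes were likewise those of lowest p among genes picked for separated arrays and a level above the median. Their separation is thus the rule and not a result. Nectin1, an adhesion receptor of adherens junctions, read 8.68, 7.92 and 9.32 at PD21 and 10.10, 10.37 and 9.54 at PD25. Its difference was 1.36 ± 0.34, and the gap between the highest PD21 and the lowest PD25 array was small. Fscn1, which bundles actin filaments, read 9.77, 8.73 and 9.17 against 10.46, 11.50 and 10.23, a difference of 1.51 ± 0.43. Tpm2, a tropomyosin, differed by 0.97 ± 0.28, and Arhgef1, an activator of RhoA, by 1.30 ± 0.35. The other probe set of Arhgef1 and 1 of 4 of Tpm2 had the opposite sign.

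Tti2, a partner of the chaperone for PI3-kinase-like kinases, differed by 1.84 ± 0.48, with 1 of its 4 probe sets of opposite sign. Elof1 (a transcription elongation factor), Mapk13 (p38 delta), Pigf (an enzyme of GPI anchor synthesis) and Zdhhc18 (a palmitoyltransferase) differed by 1.32, 1.08, 0.99 and 0.76. Mapk13 had the tightest groups, at 8.97 to 9.37 against 10.08 to 10.36. None of these 20 genes passed, and apart from Akr1c18 and Cyp2g1 their limma adjusted p lay between 0.775 and 0.855.

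**Figure D2:**
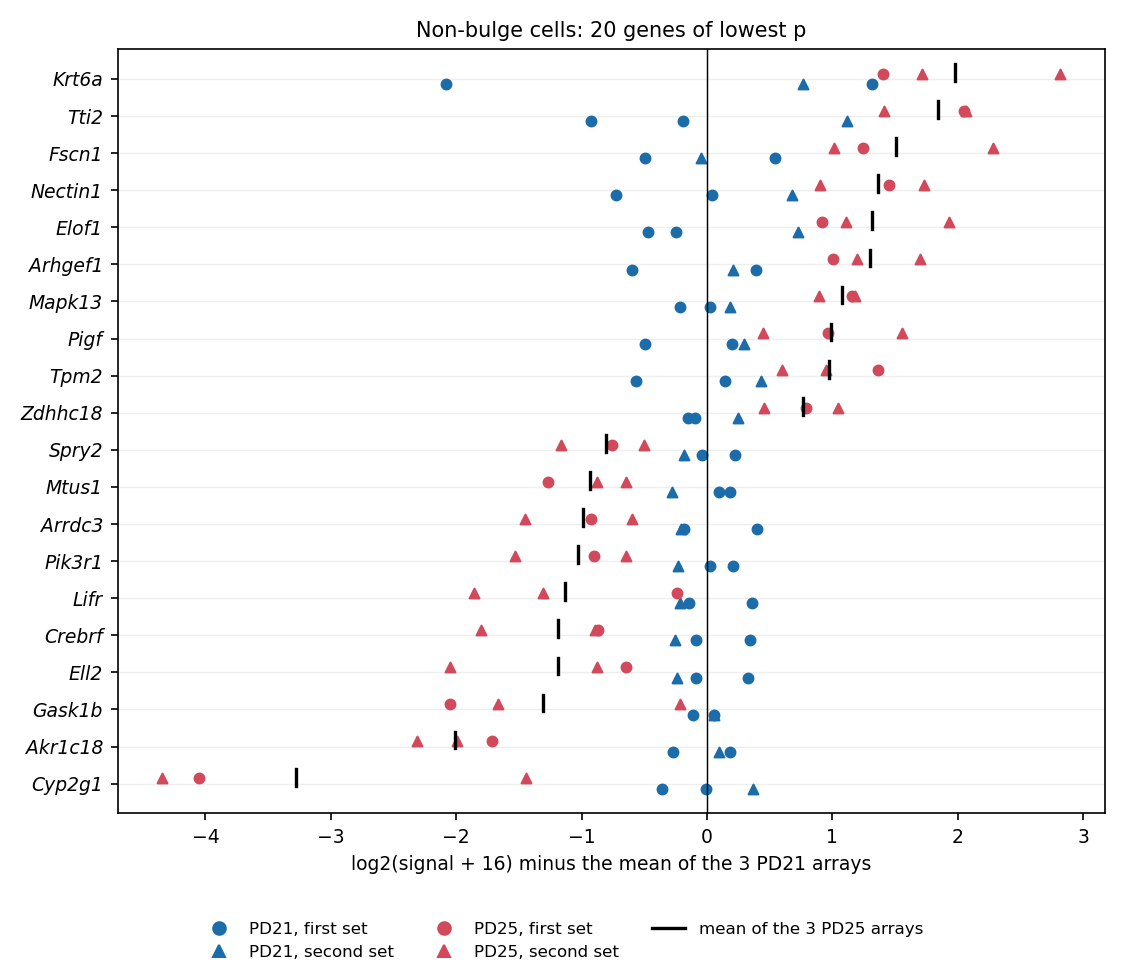
Each row is 1 of the 20 genes of lowest unadjusted p whose arrays do not overlap between the ages, and each point is 1 array as log2(signal + 16) minus the mean of the 3 PD21 arrays; circles and triangles mark the first and second set, and bars mark the PD25 mean. The PD25 means run from -3.28 for Cyp2g1 to 1.98 for Krt6a, and the 3 Akr1c18 points at PD25 lie together near -2.01.

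Ribosome biogenesis was the list with the largest share of separated arrays. Myc is the transcription factor that drives growth genes, and the list holds its targets that make ribosomal RNA and assemble ribosomes. Of its 24 tested autosomal genes, 11 (45.8%) had all PD25 arrays above all PD21 arrays, beside 4.99% of all genes, and 0 had all below. The median difference was 0.45, beside 0.022 for all genes, and 21 of the 24 differences were above 0. No member passed, and the members were listed with earlier results of these data known, so the count is a description. Centring each array on its median gave 9 separated genes.

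The list's mean level per array was 10.56, 10.39 and 10.52 in PD21 mice 1 to 3 and 10.94, 11.13 and 10.75 in PD25 mice 1 to 3. The 3 PD25 arrays were the 3 highest. Within the first set the median difference was 0.46 and within the second 0.36, and 20 of the 24 genes (83.3%) differed upward in both sets, beside 24.7% of all genes. Without PD25 mouse 2 the median was 0.35, and 11 genes of the list were separated upward beside 914 of all genes (8.18%). In undivided bulge cells the list's median difference was 0.12, and the median of the gene-by-gene differences between the fractions was 0.17. In divided bulge cells the median was -0.15 with 7 of 24 genes higher at PD25, and the non-bulge difference was below the divided one for 2 of the 24.

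Separated members had different roles in the pathway. Polr1b, a core subunit of RNA polymerase I, read 7.87, 7.75 and 7.83 at PD21 and 8.59, 8.35 and 8.40 at PD25, a difference of 0.63 ± 0.48. Nolc1, a nucleolar phosphoprotein that ties the polymerase to processing factors, read 11.19, 10.35 and 10.94 against 11.55, 11.65 and 11.44, a difference of 0.72 ± 0.24. Both genes had tight PD25 groups. Among the snoRNP proteins that modify ribosomal RNA, Nop56 read 12.13, 12.04 and 12.05 against 12.51, 12.50 and 12.30, a difference of 0.36 ± 0.21. Fbl, the fibrillarin methyltransferase, read 11.58, 11.28 and 11.75 against 12.07, 12.20 and 12.17, a difference of 0.61 ± 0.26. For Fbl the lowest PD25 array stood above the highest PD21 array by less than the range within PD21.

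Large subunit assembly was represented by Pes1, a pescadillo complex member, at 10.42, 10.50 and 10.85 against 11.39, 11.43 and 11.00, a difference of 0.68 ± 0.25. Its partner Bop1 differed by 0.54 ± 0.34. Gnl3, or nucleostemin, a nucleolar GTPase, read 10.29, 10.13 and 10.80 against 11.45, 11.30 and 11.01, a difference of 0.85 ± 0.27. In Pes1 and Gnl3 the second set held both the highest PD21 array and the lowest PD25 array. Nop2, an rRNA methyltransferase, read 9.11, 8.61 and 8.97 against 9.71, 10.13 and 9.31, a difference of 0.82 ± 0.37.

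Rrp12, an export factor of the pre-ribosome, had the largest difference of the list, 1.30 ± 0.76, but its PD21 arrays at 7.68, 6.05 and 8.42 were far apart. Ddx18 and Nop16 completed the 11, at 0.41 ± 0.24 and 0.65 ± 0.45, the latter 0.42 without PD25 mouse 2. Myc itself overlapped between the ages, at 10.35, 10.93 and 10.94 against 10.84, 11.17 and 11.23. For the nucleolar proteins Ncl and Npm1 the sign turned with the array set: they differed by -0.00 ± 0.33 and -0.15 ± 0.50, and by 0.20 and 0.24 with the set as a block. Odc1, an enzyme of polyamine synthesis and a Myc target, was the lowest of the list at -0.51 ± 0.38.

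**Figure D3:**
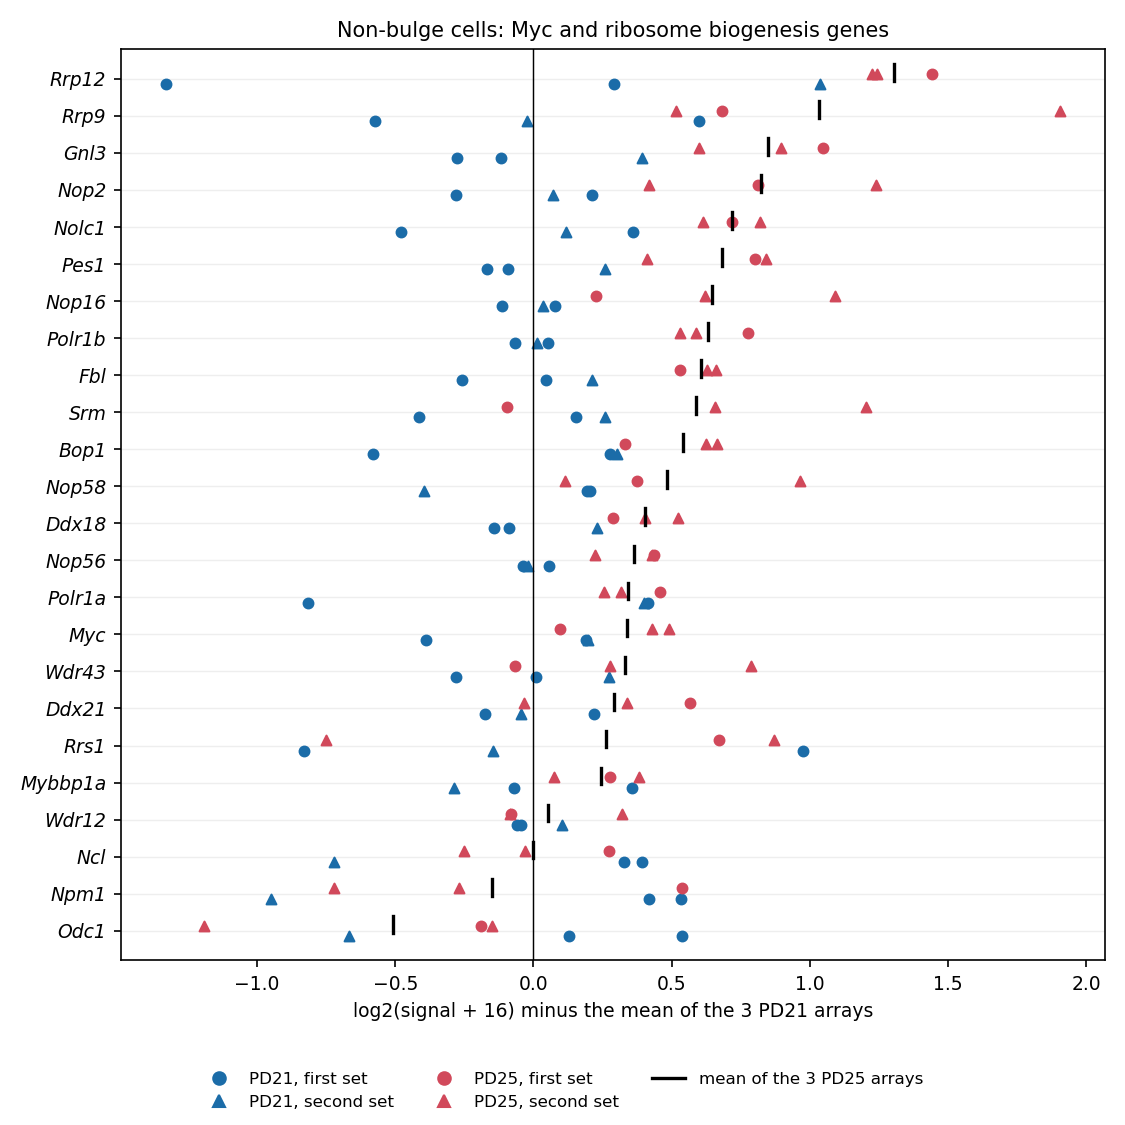
Each row is 1 of the 24 tested genes of Myc and ribosome biogenesis, and each point is 1 array as log2(signal + 16) minus the mean of the 3 PD21 arrays; circles and triangles mark the first and second set, and bars mark the PD25 mean. Bars lie right of 0 for 21 genes, and the rows with no overlap between colours are the 11 named in the text.

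Promoters are shown for 3 of the 4 members that hold CACGTG, the E-box that Myc and other factors of its class bind, because the list is defined by Myc. The RefSeq promoter table (GRCm38.p6) had windows for 17 of the 24 genes, each of 300 bases with 250 before the transcription start. The letters CACGTG, which read alike on both strands, were in 4 of the 19 windows of the list (21.1%) and in 7.15% of all 32851 windows. The E-box in capitals begins 60 bases before the start in Nop2, and its first base is base 3 after the start in Pes1, base 18 in Wdr43 and base 41 in Mybbp1a. Each sequence below is on the plus strand and runs from 250 bases before to 30 after the start, for Nop2 at chr6:125131633-125131912, Pes1 at chr11:3963725-3964004 and Wdr43 at chr17:71615965-71616244.
Nop2: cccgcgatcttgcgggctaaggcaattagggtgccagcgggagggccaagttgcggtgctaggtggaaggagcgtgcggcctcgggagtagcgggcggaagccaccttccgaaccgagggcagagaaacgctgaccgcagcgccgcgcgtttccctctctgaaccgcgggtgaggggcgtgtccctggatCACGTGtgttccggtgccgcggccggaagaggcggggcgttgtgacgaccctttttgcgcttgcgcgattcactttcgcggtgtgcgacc
Pes1: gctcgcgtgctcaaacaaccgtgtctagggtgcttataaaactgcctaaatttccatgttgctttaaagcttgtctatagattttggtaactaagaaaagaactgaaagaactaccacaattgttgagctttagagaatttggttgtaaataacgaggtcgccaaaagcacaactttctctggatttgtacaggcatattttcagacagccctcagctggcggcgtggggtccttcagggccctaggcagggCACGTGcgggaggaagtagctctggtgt
Wdr43: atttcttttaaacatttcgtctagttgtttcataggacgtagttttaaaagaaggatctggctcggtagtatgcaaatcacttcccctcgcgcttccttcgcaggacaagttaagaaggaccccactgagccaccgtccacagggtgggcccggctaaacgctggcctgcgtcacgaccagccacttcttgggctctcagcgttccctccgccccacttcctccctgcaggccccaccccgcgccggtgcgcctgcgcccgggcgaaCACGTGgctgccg
Of these, Nop2 and Pes1 were among the 8 genes with a window whose PD25 arrays all lay higher, while Wdr43, at 0.33 ± 0.31, and Mybbp1a, at 0.24 ± 0.22, overlapped between the ages. A match describes the letters only, and binding was not measured.

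Genes of the cell cycle had median differences near 0 between the ages outside the bulge. For DNA replication, 3 of 30 tested genes (10%) had all PD25 arrays higher and 1 (3.33%) all lower, beside 4.99% and 3.81% of all genes. The median difference was 0.085. For mitosis the counts were 2 and 1 of 34 (5.88% and 2.94%), with a median of 0.12, or -0.047 with the array set as a block. For replication and mitosis, 16 and 12 of the intervals lay within 1 log2 unit. Of the replication genes, 40% differed upward in both array sets and 10% downward in both, beside 24.7% and 25.8% of all genes. For mitosis each of these shares was 17.6%. Mki67, the proliferation marker, read 13.31, 13.62 and 12.75 at PD21 and 13.14, 13.05 and 12.71 at PD25, a difference of -0.26 ± 0.32 (95% interval -0.92 to 0.40). Top2a, the topoisomerase that untangles replicated chromosomes, read 10.81, 10.65 and 11.13 against 10.90, 10.63 and 11.02, a difference of -0.01 ± 0.30 (interval -0.64 to 0.62). Both groups overlapped for each gene. Pcna, the polymerase clamp, differed by 0.06 ± 0.35, and Mcm2, of the replicative helicase, by -0.26 ± 0.42.

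A few members were separated between the ages. Plk1, the mitotic kinase, read 5.61, 5.71 and 6.66 against 6.84, 6.78 and 7.31, a difference of 0.99 ± 0.53. Aurkb, a kinase of chromosome segregation, lay lower on all PD25 arrays at -0.35 ± 0.48, and its other probe set differed by 0.08. Among replication genes, the clamp loader Rfc4 read 8.46, 9.19 and 9.10 against 9.43, 9.98 and 9.64, a difference of 0.76 ± 0.42. Chaf1b and Rfc5 differed by 0.51 and 0.41, and Pold1 by -0.07, while the other probe set of Pold1 differed by 0.98.

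Cyclins and inhibitors of the cell cycle were mixed. Ccnd1, the cyclin of G1 entry, read 11.54, 11.42 and 11.66 at PD21 and 12.38, 11.98 and 12.04 at PD25. The groups did not overlap, and the difference was 0.59 ± 0.22 with a limma adjusted p of 0.998; of its 3 probe sets 1 had the opposite sign. E2f1 differed by 0.36 ± 0.38. Cdkn2b (p15) and Gas1 were lower on all PD25 arrays, by -0.69 ± 0.49 and -0.58 ± 0.31. Cdkn1a (p21) differed by 0.00 ± 0.43 and by -1.09 in the first set and 1.14 in the second.

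The same age comparison can be made in both bulge fractions. In undivided bulge cells, all 30 replication genes and all 34 mitosis genes were higher at PD25, with medians of 0.97 and 1.44. The mean of the mitosis list was 9.28, 9.16 and 9.65 in PD21 and 9.12, 9.82 and 9.59 in PD25 non-bulge cells. In undivided bulge cells it was 8.39, 9.03 and 8.56 at PD21 and 9.95, 10.17 and 10.27 at PD25. The non-bulge arrays overlapped between the ages and the undivided bulge arrays did not, and at PD21 all non-bulge arrays lay above all undivided bulge arrays.

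The age difference was smaller in non-bulge than in undivided bulge cells for 30 of 30 replication genes and 33 of 34 mitosis genes, beside 49.2% of all genes. The medians of this gap were -0.71 and -1.40, with a typical standard error per gene of 0.49 and 0.62. For Top2a the gap was -1.34 ± 0.43, for Mcm2 -1.64 ± 0.60, for Mki67 -1.18 ± 0.45 and for Aurkb -1.75 ± 0.68. No single gap passed, and limma's test of the difference between the fractions called 0 of 11171 genes (0%), with 433 (3.88%) at an unadjusted p under 0.05.

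In divided bulge cells, too, the cell cycle lists had medians near 0. There, 10 of the 30 replication genes and 12 of the 34 mitosis genes were higher at PD25, with medians of -0.17 and -0.05. The mean of the mitosis list was 9.29, 9.38 and 9.98 at PD21 and 8.61, 10.37 and 9.54 at PD25, so that the ages overlapped, as they did outside the bulge. Top2a differed by -0.08 ± 0.30 and Mki67 by -0.16 ± 0.32 in divided bulge cells. The median gap between the non-bulge and the divided bulge difference was 0.22 for replication and 0.16 for mitosis, and for Top2a the gap was 0.07 ± 0.43.

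**Figure D4:**
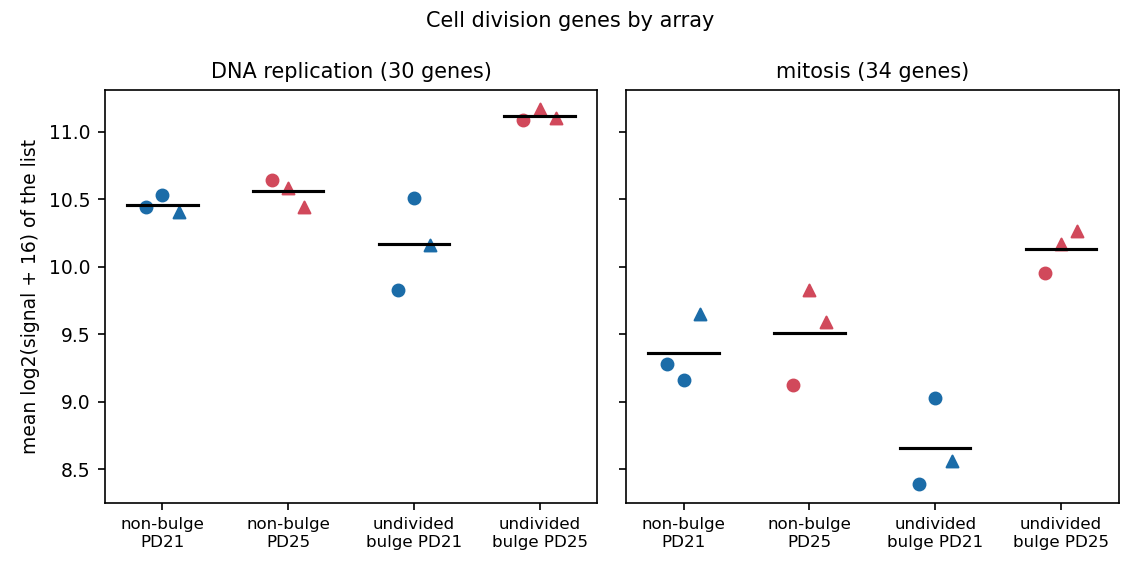
Mean log2(signal + 16) over the 30 DNA replication genes (left) and the 34 mitosis genes (right) by array, for non-bulge and undivided bulge cells at PD21 (blue) and PD25 (red); each point is 1 array, circles and triangles mark the first and second set, and lines are group means. Non-bulge arrays lie between 9.12 and 9.82 for mitosis at both ages, while undivided bulge arrays lie at 8.39 to 9.03 at PD21 and 9.95 to 10.27 at PD25.

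The 5 genes of lowest p in the test between the fractions had adjusted p-values of 1 in limma. Fcgbp, a mucin-like protein, differed with age by -0.24 ± 0.40 outside the bulge and by -2.69 in undivided bulge cells, a gap of 2.45 ± 0.56. Sparc, a matrix protein, had 0.76 ± 0.35 against -1.21, and with the array set as a block its gap of 1.97 had an adjusted p of 0.0494. Tagln, a smooth muscle actin-binding protein, had -0.81 against 2.04, Elovl6, a fatty acid elongase, -0.28 against 1.42, and Gask1b -1.31 against 0.72. Without PD25 mouse 2, the non-bulge difference was 0.16 for Fcgbp and 0.13 for Elovl6.

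Against divided bulge cells, the age difference outside the bulge stood apart for some genes. Limma's test of that gap called 182 of 11171 genes (1.63%), of which 80 had the higher value outside the bulge and 102 the lower, and 1320 (11.8%) had an unadjusted p under 0.05. Leaving out 1 of the 12 arrays gave 57 to 262 called genes. The count was 89 and 90 without PD21 non-bulge mice 1 and 3, 111 without PD25 non-bulge mouse 1, 57 and 74 without PD21 divided bulge mice 1 and 2, and 85 and 76 without PD25 divided bulge mice 1 and 3. Of the 102 genes named by rule or as markers, 11 were among those called. Many of the 102 were named for the non-bulge difference that each gap contains, so this share cannot be set against that of all genes. None of the 11 passed for age outside the bulge, and each gap holds the divided bulge difference as well. In divided bulge cells the bulge genes Cd34 and Lhx2 were themselves higher at PD25, while Krt15 overlapped between the ages. Lhx2 read 9.84, 9.21 and 9.87 there at PD21 and 12.15, 11.74 and 12.42 at PD25. Over both ages it read 11.723 to 11.875 in undivided bulge cells and 7.331 to 7.928 outside the bulge. For Cd34 and Lhx2 the divided bulge arrays thus lay nearer to undivided bulge cells at PD25 than at PD21. The part of this shift in the 182 gaps was not tested.

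In divided bulge cells, 4 of the 11 had lower means at PD25. Fcgbp fell by 2.91 ± 0.40 on the log2 scale there (adjusted p 4.36e-05 in limma), and its gap was 2.68 ± 0.56 (adjusted p 0.0147). Bmp4, a BMP ligand, read 9.13, 9.69 and 9.01 against 5.79, 7.74 and 6.79 there, and differed by 0.21 outside the bulge, a gap of 2.71 ± 0.69 (limma adjusted p 0.0449). Wnt4, a Wnt ligand, fell by 1.30 ± 0.33 in divided bulge cells while all non-bulge arrays at PD25 lay higher, a gap of 2.15 ± 0.47 (limma adjusted p 0.0201). For Epgn the divided bulge difference was -1.69 ± 0.54 and the gap 3.09 ± 0.76 (limma adjusted p 0.0368). At PD21, undivided bulge means were 11.43 for Fcgbp, 5.76 for Bmp4, 9.10 for Wnt4 and 6.99 for Epgn. Non-bulge means at that age were 13.03, 9.66, 10.43 and 10.33 in this order.

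The other 7 had higher means at PD25 in divided bulge cells. Mtus1 read 10.54, 10.62 and 10.64 against 12.11, 11.80 and 11.96 there, a gap of -2.29 ± 0.33 (limma adjusted p 0.00151). This gap was also called under all 18 alternatives run for it. None of these used another probe set, and outside the bulge 1 of the 3 Mtus1 probe sets differed by 0.68. Spry2, Pik3r1 and Gask1b differed by 0.65, 0.67 and 0.94 in divided bulge cells, with gaps of -1.46 ± 0.33, -1.70 ± 0.41 and -2.25 ± 0.54, and none of the 3 passed for age in that fraction. Egfr and Lgr4 rose there by 0.81 and 0.90 (limma adjusted p 0.0135 and 0.0186), with gaps of -1.12 ± 0.29 and -1.29 ± 0.34. Cd34, on which the bulge was sorted, read 7.91 to 9.68 at PD21 and 11.56 to 12.87 at PD25 in divided bulge cells and stayed dim outside the bulge. Its gap of -2.67 ± 0.65 thus involves the gating marker itself, and the part of the sort in the other gaps was not tested. At PD21, undivided bulge means were 12.33 for Mtus1, 10.39 for Spry2, 13.29 for Pik3r1 and 9.54 for Gask1b. They were 11.79 for Egfr, 12.93 for Lgr4 and 12.73 for Cd34. Non-bulge means at that age were 10.57, 10.43, 11.87, 9.64, 11.13, 11.77 and 4.52 in this order.

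Stress keratins and keratinocyte cytokines had the highest median of the epithelial lists, and it rested in part on 1 array. Krt6a, a keratin of the companion layer and of injured epidermis, read 8.76, 5.36 and 8.21 at PD21 and 8.85, 10.26 and 9.16 at PD25, a difference of 1.98 ± 0.57. Its pairing partner Krt16 read 8.36, 6.18 and 8.71 against 9.36, 9.45 and 9.17, a difference of 1.58 ± 0.61. In both genes PD21 mouse 2 was by far the lowest array, and PD21 mice 1 and 3 lay just below PD25. Of the 14 tested members, these 2 were separated upward (14.3%) and 0 downward, beside 4.99% and 3.81% of all genes. The median was 0.91 with all arrays, 0.44 without PD21 mouse 2 and 0.46 and 0.48 within the sets. S100a8 and S100a9, the alarmin pair, differed by 1.38 ± 0.71 and 1.20 ± 0.85, with overlapping arrays, and S100a9 by 0.71 without PD25 mouse 2.

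EGF family ligands were separated in both directions. Epgn (epigen) read 9.84, 10.75 and 10.42 at PD21 and 11.00, 12.72 and 11.49 at PD25, a difference of 1.40 ± 0.53, and 0.91 without PD25 mouse 2. Btc (betacellulin) differed by 0.87 ± 0.58 and Ereg (epiregulin) by 0.61 ± 0.66, both dim, with Btc at 4.17 to 5.29 and 5.40 to 6.42. Tgfa read 7.84, 7.99 and 7.21 against 5.50, 6.77 and 7.14, a difference of -1.21 ± 0.59, and Egfr, their receptor, differed by -0.32 ± 0.20, with 4 of 7 probe sets of that sign. Among MAP kinase feedback genes, Dusp6 read 9.21, 9.16 and 9.01 against 9.42, 10.60 and 9.30, a difference of 0.65 ± 0.32 that was 0.24 without PD25 mouse 2, while Spry2 was lower. In all, 5 of 23 tested members were separated upward (21.7%) and 3 downward, with a median of 0.12.

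Of 28 immediate early and dissociation genes, which respond quickly to stimulation and to tissue handling, 2 were separated upward and 1 downward. These are 7.14% and 3.57%, beside 4.99% and 3.81% of all genes. Fosl1, the AP-1 member Fra-1, read 5.54, 4.47 and 4.62 at PD21 and 6.90, 8.32 and 6.53 at PD25, a difference of 2.37 ± 0.62 with a limma adjusted p of 0.806. All PD21 arrays were dim. Ier3 differed by 0.89 ± 0.31 and Klf2 by -0.88 ± 0.66. Fos itself overlapped, at 13.45, 12.94 and 12.93 against 12.74, 12.68 and 13.12.

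Hedgehog signalling components had a median below 0 whose size turned on how the array sets were handled. Of 11 tested genes 0 were separated upward and 3 downward, and 9 differences were below 0, with a median of -0.27. The 3 stand beside 3.81% of all genes separated downward, and the 9 beside 5326 of all 11171 genes. The list's median was -0.17 within the first set and -0.03 within the second, and -0.40 with the array set as a block. Smo, the signal transducer, read 12.50, 12.86 and 12.23 against 11.99, 12.21 and 12.20, a difference of -0.40 ± 0.22 that was -0.03 within the second set. The co-receptors Gas1 and Cdon differed by -0.58 ± 0.31 and -0.27 ± 0.31, and the other probe set of Cdon by 0.21. The target genes overlapped: Ptch1 read 13.04, 12.71 and 12.71 against 11.58, 12.13 and 12.80, a difference of -0.65 ± 0.36. Gli1 read 6.65, 7.85 and 8.14 against 4.12, 7.89 and 8.44, so its -0.73 ± 0.88 turned on PD25 mouse 1, with a difference of 0.02 within the second set. Shh had no tested probe set.

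Wnt, BMP and Notch genes showed no shared direction. In the Wnt list, 2 of 30 (6.67%) were separated upward and 1 (3.33%) downward, beside 4.99% and 3.81% of all genes. The median was 0.01. Wnt4 read 10.72, 9.80 and 10.75 against 11.38, 11.19 and 11.26, a difference of 0.85 ± 0.33, though its other probe set had the opposite sign. Wnt7b differed by 0.59 ± 0.50, or 0.29 without PD25 mouse 2, and the receptor Lgr4 by -0.40 ± 0.24, with 0.26 for its other probe set, while the target genes Axin2 and Lef1 differed by -0.04 ± 0.28 and 0.08 ± 0.58.

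In the BMP and TGF-beta list, 1 of 27 (3.70%) was separated upward and 2 (7.41%) downward, beside 4.99% and 3.81% of all genes. The median was -0.01. The ligand Tgfb2 differed by 1.31 ± 0.78, with 1 of 4 probe sets of opposite sign, the receptor Bmpr1b by -1.02 ± 0.53, and the ligands Bmp6, Bmp4 and Bmp2 by -0.90, 0.21 and -0.27. For Notch, 0 of 12 were separated upward and 2 (16.7%) downward, beside the same shares of all genes, with a median of -0.13. Jag1, a ligand, read 12.28, 12.08 and 11.64 against 11.57, 11.13 and 11.55, a difference of -0.59 ± 0.24, with 1 of 3 probe sets of opposite sign. Nrarp, a target, differed by -0.37 ± 0.22.

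Lists of basal and differentiated epidermis had medians near 0. Of 31 differentiation genes 0 were separated in either direction, and the median was -0.11, or 0.09 with the array set as a block. Krt1 and Krt10 differed by 0.06 ± 0.39 and -0.11 ± 0.46. Lor (loricrin), of the cornified envelope, read 12.37, 12.49 and 9.70 against 12.36, 7.94 and 10.84, and its -1.14 ± 0.93 became 0.077 without PD25 mouse 2. Of 18 basal genes 2 were separated upward and 2 downward (11.1% each way), beside 4.99% and 3.81% of all genes. Among hemidesmosome and basement membrane genes, Itgb4 differed by 0.56 ± 0.26 and Lamb3 by 0.35 ± 0.24, while Col7a1, the anchoring fibril collagen, was lower on all PD25 arrays, at 9.95 to 11.31 against 11.43 and above, a difference of -1.11 ± 0.48.

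Sebaceous genes were mostly lower, by small amounts, but their mean level overlapped between the ages. That mean was 10.079, 9.775 and 10.166 in PD21 mice 1 to 3 and 9.671, 9.641 and 10.325 in PD25 mice 1 to 3. Of 22 tested, 0 were separated upward and 2 (9.09%) downward, beside 4.99% and 3.81% of all genes, and the median was -0.16. Of their differences 16 were below 0, beside 5326 of all 11171 genes. Fads2, a fatty acid desaturase, read 6.83, 6.59 and 6.16 against 4.66, 4.43 and 4.94, a difference of -1.85 ± 0.60 at levels under or near the array median. Mgst1 differed by -0.54 ± 0.33, Scd1 by -0.43 ± 0.28 (-0.25 without PD25 mouse 2) and Pparg, the regulator of sebocyte fate, by 0.20 ± 0.69. Scd3 went the other way at 1.38 ± 0.66, with overlapping arrays, or 2.32 without PD25 mouse 2.

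Follicle lists held few bright members. The inner root sheath keratins Krt25 and Krt27 were separated upward, Krt25 at 6.05, 4.45 and 5.08 against 7.86, 7.32 and 6.52 and Krt27 at 4.22, 5.02 and 4.29 against 5.74, 6.82 and 5.64. Their differences were 2.04 ± 1.09 and 1.56 ± 0.80, and the PD21 arrays were all below 6.72. These 2 genes were 16.7% of the 12 tested, beside 4.99% of all genes. The other 10 tested shaft and sheath genes overlapped, as did all 14 of hair germ and matrix and all 11 of the isthmus and infundibulum. Of 30 bulge genes, 0 were separated upward and 2 (6.67%) downward, Bmp6 and Gas1, beside 4.99% and 3.81% of all genes.

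Metabolic lists leaned slightly upward. Of 23 genes of oxidative phosphorylation 17 differed upward, beside 5843 of all 11171 genes. Their median was 0.10, and 21 had intervals within 1 log2 unit. Uqcrc1, of complex III, read 10.99, 11.14 and 11.15 against 11.57, 11.83 and 11.25, a difference of 0.46 ± 0.21. Of 18 cholesterol synthesis genes 14 differed upward, with a median of 0.28, but only Sc5d was separated, and downward, at -0.42 ± 0.30. Sc5d differed by -0.28 without PD25 mouse 2, and 1 of its 3 probe sets differed by 0.66. In glycolysis and hypoxia, Car9, a carbonic anhydrase induced by low oxygen, was separated at 0.93 ± 0.51, and the median of 19 genes was 0.14. Of 18 interferon genes only Oas1a was separated, at -1.32 ± 0.60, and without PD25 mouse 2 its difference was -0.79.

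The 18 clock genes were not separated by age in either direction, and their values turned on PD25 mouse 2. Dbp differed by 0.07 ± 0.57 with all arrays and by 0.99 without that array, and Nr1d1 by 0.11 ± 0.54 and 0.88. Per3 differed by -0.88 ± 0.41 with it and -0.15 without it, Nr1d2 by -0.87 ± 0.52 and 0.31, Cry1 by 0.39 ± 0.35 and -0.06, Arntl by 0.20 ± 0.71 and -0.67, and Per2 by 0.18 ± 0.42 and 0.34.

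**Figure D5:**
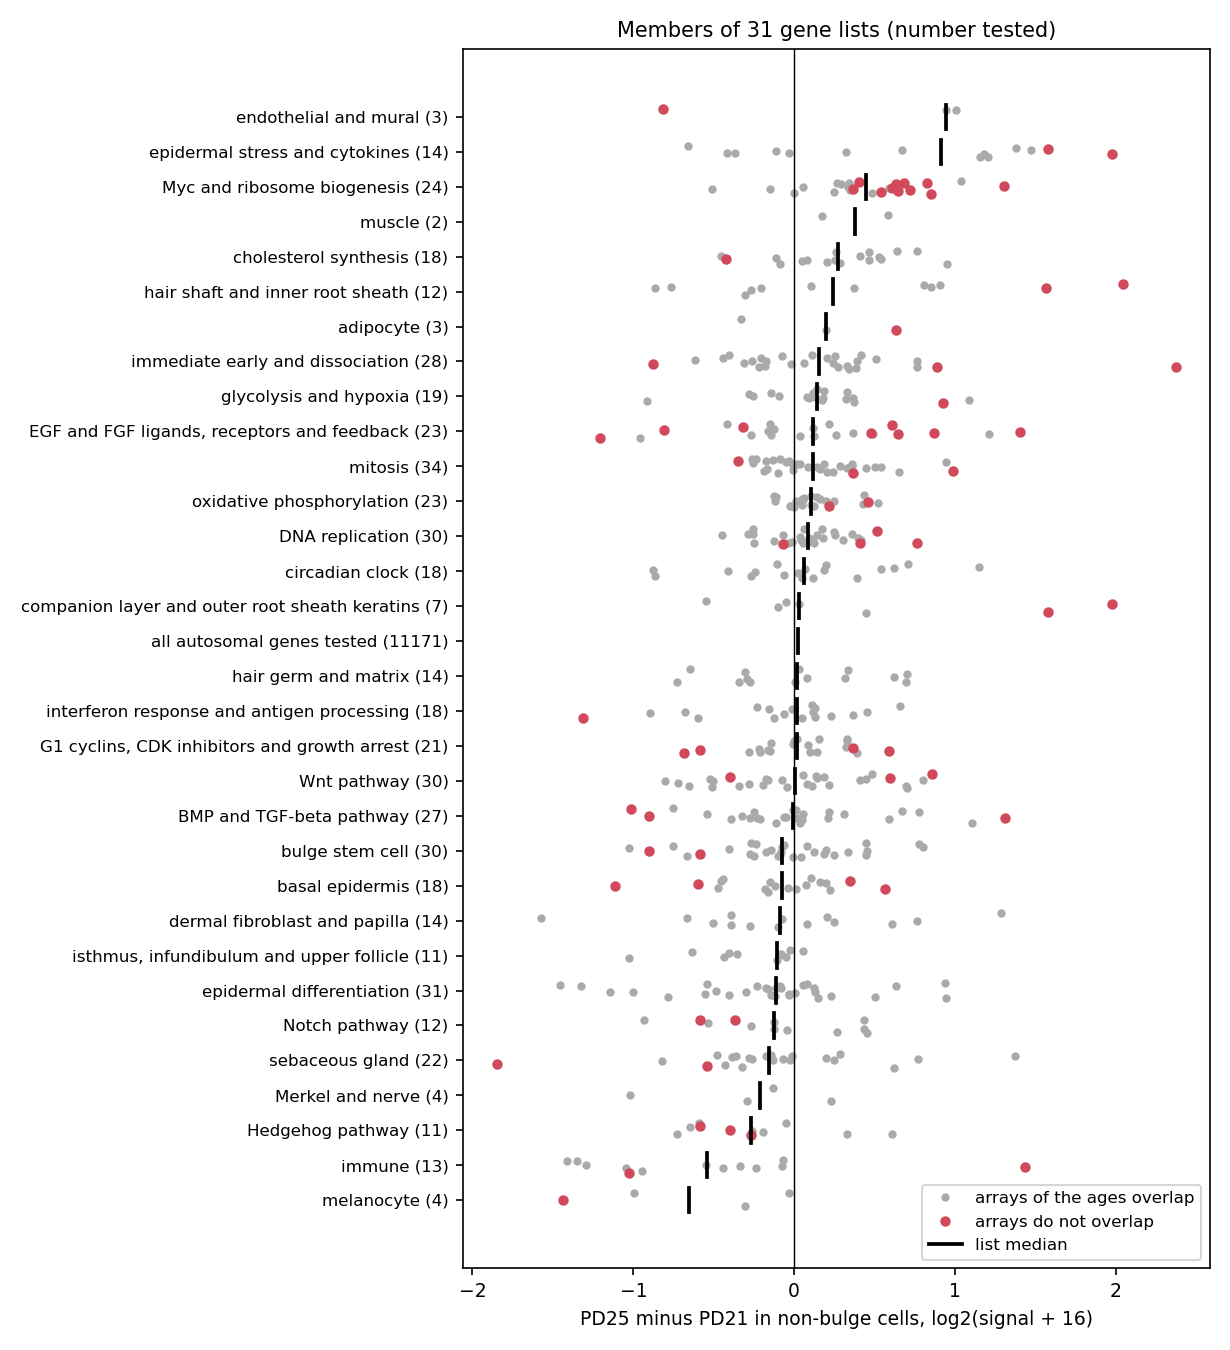
Each row is a gene list, with the number of its autosomal genes tested, and each point is a member's PD25 minus PD21 difference in non-bulge cells on the log2(signal + 16) scale; red points have no overlap between the arrays of the 2 ages, bars are medians, and the row of all 11171 genes shows its median only. Ribosome biogenesis has 11 red points right of 0 and none left of it, while differentiation, clock, isthmus and hair germ lists have no red point.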

How the data were processed

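Total RNA of sorted fractions (5 ng, amplified with Ovation chemistry) was hybridised to Affymetrix MOE arrays, per the labels' protocols. The authors deposited probe set intensity values on a linear scale from GCOS, per the submitters' processing notes. Each array's 2% trimmed mean was 500, so no further scaling was done. The sources used here do not give the GCOS version or its settings. Summaries by GCOS are noisy for dim probe sets, and log2(signal + 16) understates their differences.

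Of 45101 probe sets, 34945 had 1 gene symbol, 932 several, 9160 none and 64 were controls; those with 1 symbol were used. A probe set had to exceed its array's median on at least 3 of 18 arrays, and the brightest stood for its gene. This left 11569 genes, 11171 of them autosomal; genes on X and Y were left out of all counts. Group means of the 18 arrays were fitted with limma 3.58.1 in R 4.3.3 (lmFit, eBayes with trend; 12 residual and 11.2 prior degrees of freedom), adjusted by Benjamini-Hochberg over 11569 genes, with a threshold of 0.05. The code was tested on simulated data. The 2 ages are different mice, so arrays were not paired: same-numbered arrays correlated at 0.129, -0.029 and 0.342 in their deviations. Within an age, the fractions carry the same mouse numbers, and the tests between fractions left this out. With animal as a random block, limma's test against undivided bulge called 0 genes, with 732 at an unadjusted p under 0.05. No such block was run for the test against divided bulge.

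Named genes are up to 12 per direction that passed, otherwise the 10 of lowest p per direction with no overlap and a level above the median, up to 3 separated members per list and direction, a fixed set of markers, and 5 for the test between fractions. Others were named after their values were seen. The test against divided bulge cells was added after the data were seen. The comparison and the 32 gene lists were chosen with earlier results of these data known, and some genes stand in several lists. Alternatives covered the pseudocount, the filter, normalisation, fit, blocks, array sets and single arrays.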

Additional observations from a re-analysis of the deposited data

Results flagged for a closer look

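The change with age differed between non-bulge and divided bulge cells for 182 autosomal genes by limma's test of the difference itself. Among them were 11 genes named in the text, where many genes were named for the non-bulge difference that each gap contains. In divided bulge cells the bulge genes Cd34 and Lhx2 were higher at PD25, nearer to their levels in undivided bulge cells than at PD21. Each gap holds the divided bulge difference as well, and the part of the sort in the other gaps was not tested. For Bmp4, Epgn, Fcgbp and Wnt4 the non-bulge difference was the higher, by 2.71, 3.09, 2.68 and 2.15 on the log2 scale. For Cd34, Egfr, Gask1b, Lgr4, Mtus1, Pik3r1 and Spry2 the gaps were -2.67, -1.12, -2.25, -1.29, -2.29, -1.70 and -1.46. Of the 18 alternatives run for each gap, Mtus1 passed in 18, Fcgbp in 15 and Wnt4 in 14, while Egfr and Lgr4 passed in 5, with adjusted p-values up to 0.616 and 0.544 in limma. The gaps of Bmp4, Cd34, Epgn, Gask1b, Pik3r1 and Spry2 passed in 8, 10, 9, 7, 7 and 10. None of these alternatives used another probe set. Outside the bulge, Egfr, Lgr4, Mtus1 and Wnt4 each had probe sets of opposite sign.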

How the results depend on the processing

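Precision is limited by 3 mice per age, by arrays in 2 unlabelled sets and by dim probe sets near background. The count of genes passing, 0 as reported, was 1 with a pseudocount of 64 (Akr1c18, adjusted p 0.0262), with median centring (Cyp2g1, 0.0401), with the 6 arrays fitted alone (Akr1c18, 0.00399), with array weights (Akr1c18, 0.0338), with a replicate block (Cyp2g1, 0.0415) and with the array set as a block (Cyp2g1, 0.0164), all by limma. Within the first set it was 4 (Eml2, Ism1, Kif26a and Trps1) and within the second 0. Leaving out 1 array gave 0 to 2: Nudt22 without PD21 mouse 3, Lifr without PD25 mouse 1, and Cyp2g1 and Gask1b without PD25 mouse 3. The test between the fractions called 1 gene with a replicate block (Fcgbp), 1 with the set as a block (Sparc) and 3 within the first set (Fcgbp, Lor and Pak6). At an unadjusted p under 0.05 there were 485 genes as reported and 294 to 845 over the alternatives, and 433 and 312 to 791 between the fractions. The replicate numbers do not pair mice across ages, so the replicate block is a check on numbering only. The test against divided bulge cells called 182 genes as reported, 101 with median centring, 61 with no variance trend, 336 with a replicate block, 340 with the set as a block and 57 to 262 with 1 array left out, the fewest without PD21 divided bulge mouse 1. Of its 11 named genes none changed sign.

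Genes with all PD25 arrays higher numbered 557, and 914 to 1580 with 1 array left out. Those with all lower numbered 426, 726 with no filter, 246 with median centring (beside 547 higher) and 785 to 1046 with 1 array left out; these counts rise because fewer arrays have to be separated. Ribosome biogenesis had 9 to 14 separated genes and a median of 0.35 to 0.54. Of 102 named genes, 78 kept their sign under all 21 alternatives of the difference. Lor, at -1.14, was -2.13 to 0.077 with 1 array left out, the higher without PD25 mouse 2; the cause was not tested. Of 630 list medians recomputed, 25 moved by more than the spread between arrays.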
